A study of Mus musculus with 3 samples.

Results

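The TRIM (tripartite motif) genes were described in 3 RNA sequencing libraries of RAW264.7, a mouse macrophage line. Members were taken by symbol, as genes named Trim with a number and at most 1 letter that occur in both deposited tables, and where a symbol occurred more than once the row with the highest summed level represented it. This gave 63 members among 45100 symbols. The groups, with 1 library each, were untreated cells grown at low density (LD), untreated cells at high density (HD), and high density cells with bacterial lipopolysaccharide (HD+LPS). LPS, an outer membrane component sensed by macrophages, was given at 500 ng/ml from 24 h after seeding for 24 h, and the HD cells were left without it. The harvest time of the LD cells is not stated separately. RAW264.7 derives from an Abelson leukaemia virus tumour of mice, the labels name no genetic change in any group, and 1 line stands for macrophages throughout.

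TRIM proteins are defined by a RING domain, 1 or more B-boxes and a coiled coil at their N terminus, and the RING makes most of them E3 ubiquitin ligases. The C-terminal domain sets the target and divides the family into classes, of which the class with a SPRY (B30.2) domain is the largest. Many SPRY members restrict viruses or tune innate immune signalling and are transcribed in response to interferon, while others, such as the chromatin proteins with a PHD finger and bromodomain, act in the nucleus of nearly all cells.

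Levels are FPKM as Cuffdiff gave them, which are scaled for transcript length, and each ratio was made within 1 table. Both tables contain HD, each with its own scaling: over the 20 members at 1 FPKM or more in both, the LPS table's HD level differed from the density table's by a median log2 of -0.14, against -0.13 over 10398 genes. For a transcript of 1 kilobase, 1 FPKM was worth about 16.7 fragments in LD, 17 in HD, 18.3 for HD in the LPS table and 14.9 in HD+LPS. With 1 library a group no difference has a replicate check, so no test was run and the values describe these libraries. Macrophage genes marked all 3 libraries: Csf1r, the receptor for colony-stimulating factor 1, was 228 FPKM in LD and 178 in HD, and 165 and 114 without and with LPS in the LPS table. Of 10 macrophage markers 9 had a row and 7 were at 1 FPKM or more in each table, while Mertk was listed at 0 in both tables and Mrc1 in the LPS table. Of the lists for T cells, B cells, fibroblasts and epithelial cells, 0 members reached 1 FPKM, and of 4 neutrophil markers 1 did, Elane, at no more than 1.54 FPKM.

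Of the 63 members, 23 were at 1 FPKM or more in at least 1 library, 28 were above 0 but under 1 FPKM in all, and 12 were listed at 0 in all. This is 36.5% of members at 1 FPKM or more, beside 46.8% of 20518 protein-coding genes. The share listed at 0 was 19.0% of members, beside 36.7% of those genes. Of the expressed members, 13 reached 10 FPKM. In each library the median of the members at 1 FPKM or more was below that of all genes, for example 10.2 FPKM beside 13.9 at high density. By class, 11 of 33 SPRY members with a RING were at 1 FPKM or more, 3 of 4 PHD-bromodomain members and 2 of 4 members with NHL repeats. Among the COS class, whose members bind microtubules or sarcomeres in muscle and nerve, 1 of 8 was, Trim46.

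Trim28, also known as KAP1, the co-repressor that KRAB zinc finger proteins recruit to silence transposons (chromosome 7, 13024152 to 13031032, GRCm38), was the highest member in every library. Its level was 130 FPKM in LD and 152 in HD, and within the LPS comparison it was 137 in HD and 83.3 in HD+LPS. By density it held 30.2% of the summed FPKM of the 63 members in LD and 33.9% in HD. Within the LPS comparison it held 33.7% in HD and 19.3% in HD+LPS. Next came Trim27, a SPRY ligase active in endosomal sorting, at 48.9 FPKM in LD and 56.5 in HD, and 50.6 and 41.3 without and with LPS. Trim8, a regulator of cytokine signalling, was 45.2 and 46.3 by density, and 41.4 and 35.3 by LPS. Trim44, a member without a RING, was 37.4 and 34.7 by density, and 31.6 and 35.2 by LPS. These genes and the SPRY ligase Trim35 followed Trim28 in LD and HD. The 5 together made up 67.6% of the members' summed FPKM in LD and 70.6% in HD. In the authors' deposited table each of the 5 has q = 0.999352 by density and q = 0.999327 with LPS. With LPS the 5 highest were Trim28, Trim25, Trim35, Trim27 and Trim8. Trim25 was thus among the 5 and Trim44 was not, though Trim44 at 35.2 FPKM was close to Trim8 at 35.3. The place of Trim25 rests on its row on an alternate scaffold, at 61.4 FPKM, while its chromosome 11 row was 36.1.

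**Figure D1:**
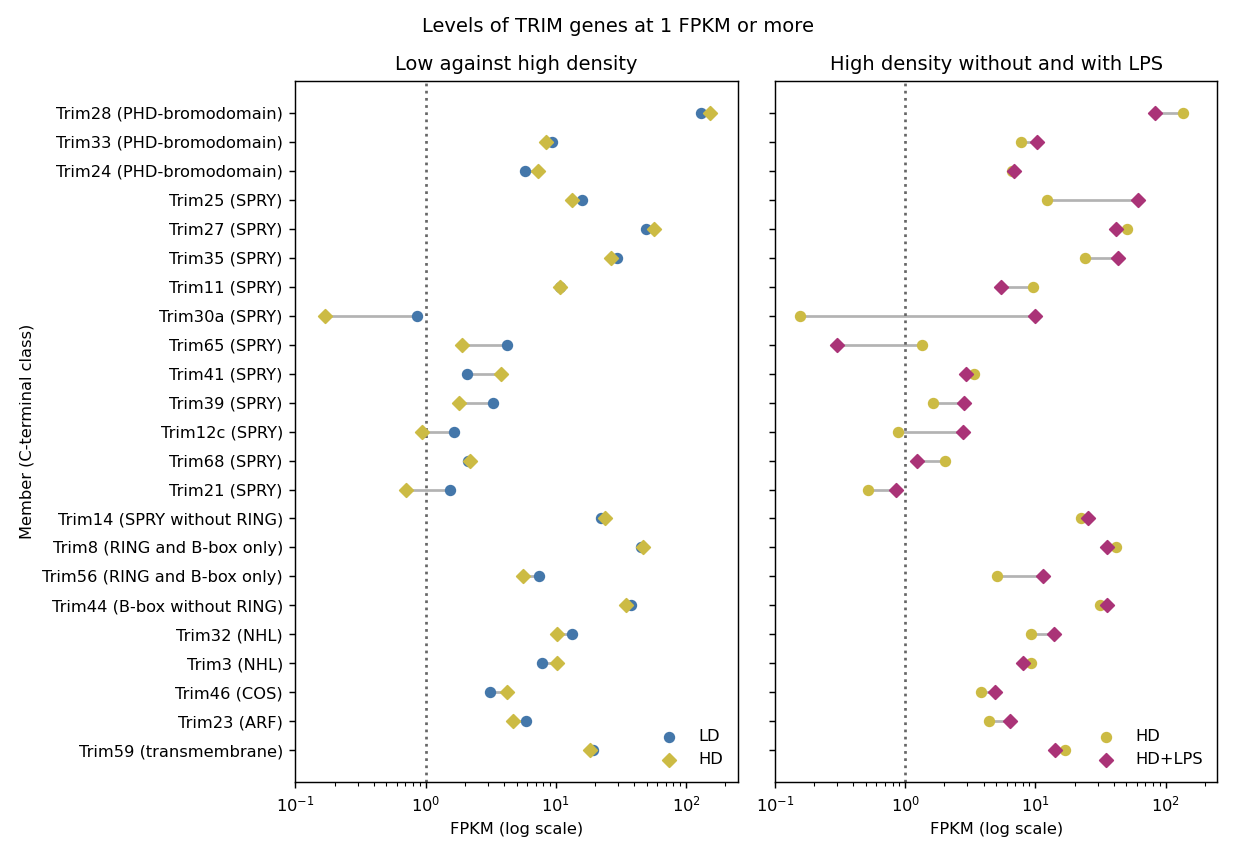
FPKM (log axis) of the 23 members at 1 FPKM or more in any library, sorted by C-terminal class, 1 library a point. The left panel sets low (circles) against high density (diamonds), the right panel high density without (circles) and with LPS (diamonds). The dotted line is 1 FPKM, and Trim30a has the widest gap, from 0.156 to 9.91 FPKM with LPS.

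Trim25, Trim30a, Trim56 and Trim12c were at least 2-fold higher with LPS, and their promoter windows are shown here because they passed that threshold. Whether they share a regulator was not tested. The windows are RefSeq's (GRCm38.p6), from 250 bases before to 50 after the start of transcription, on the gene's strand, 5′ to 3′. Capitals mark the core of the interferon-stimulated response element, GAAA and GAAA separated by any 2 bases, searched on both strands.
Trim30a, chr7:104465144-104465443, minus strand: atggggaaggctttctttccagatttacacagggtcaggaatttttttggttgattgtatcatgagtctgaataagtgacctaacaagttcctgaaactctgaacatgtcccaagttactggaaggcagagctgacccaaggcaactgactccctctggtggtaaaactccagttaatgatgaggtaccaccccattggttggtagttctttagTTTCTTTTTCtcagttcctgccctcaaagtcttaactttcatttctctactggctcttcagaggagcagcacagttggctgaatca
Trim12c, chr7:104353300-104353599, minus strand: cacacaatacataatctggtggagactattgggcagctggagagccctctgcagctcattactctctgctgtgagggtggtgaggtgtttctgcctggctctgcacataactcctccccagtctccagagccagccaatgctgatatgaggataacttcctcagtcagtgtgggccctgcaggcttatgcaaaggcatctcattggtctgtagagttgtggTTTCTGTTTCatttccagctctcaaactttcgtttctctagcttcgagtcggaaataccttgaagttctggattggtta
Trim25, chr11:88999153-88999452, plus strand: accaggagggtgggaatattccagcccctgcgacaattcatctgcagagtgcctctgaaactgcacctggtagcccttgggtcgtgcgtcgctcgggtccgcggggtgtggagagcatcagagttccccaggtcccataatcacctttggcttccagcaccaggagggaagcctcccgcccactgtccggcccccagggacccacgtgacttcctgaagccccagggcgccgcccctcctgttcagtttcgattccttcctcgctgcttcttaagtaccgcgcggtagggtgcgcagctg
Trim56, chr5:137116158-137116457, minus strand: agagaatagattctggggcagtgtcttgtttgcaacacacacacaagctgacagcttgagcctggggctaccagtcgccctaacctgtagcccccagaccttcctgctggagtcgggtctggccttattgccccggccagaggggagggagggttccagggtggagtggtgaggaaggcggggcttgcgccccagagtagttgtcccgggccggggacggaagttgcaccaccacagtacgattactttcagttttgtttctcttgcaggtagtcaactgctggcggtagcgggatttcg
In the windows printed, the core begins at base -36 from the start site in Trim30a and at base -29 in Trim12c. These letters are not in the windows of Trim25 and Trim56. Trim30a has a further window, not printed, at chr7:104446076-104446375, where the core begins at base 3. Trim30a therefore enters the counts of windows below more than once.

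Over all members, 49 had a window in RefSeq's table, with 62 windows in all. The response element core was in 10 of these 62 windows (16.1%), beside 3.44% of all 32851 promoter windows. By gene it was in 9 of 49 members, beside 1079 of 27025 genes. The 9 genes were Trim5, Trim12a, Trim12c, Trim21, Trim30a, Trim30d and Trim34a on chromosome 7, Trim26 on chromosome 17 and Trim2 on chromosome 3. Shorter stretches around the match are given for the other members of chromosome 7, to show how alike the neighbours are.
Trim5, chr7:104288131-104288170, minus strand: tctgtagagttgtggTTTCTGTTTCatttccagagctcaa
Trim12a, chr7:104315461-104315500, minus strand: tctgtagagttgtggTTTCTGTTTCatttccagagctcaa
Trim30d, chr7:104507866-104507905, minus strand: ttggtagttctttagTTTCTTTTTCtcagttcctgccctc
Trim34a, chr7:104244452-104244491, plus strand: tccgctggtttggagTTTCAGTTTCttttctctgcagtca
Trim21, chr7:102565439-102565484, minus strand: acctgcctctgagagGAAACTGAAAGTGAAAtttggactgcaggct
In Trim21 a pair of matches overlap. Trim5, Trim12a and Trim12c share most of the stretch around their match, as do Trim30a and Trim30d. These windows are thus not independent, and the share among members rests partly on neighbours that are alike. The GAS motif, TTCNNNGAA, was in 11.3% of member windows and 8.30% of all, the kappaB motif in 6.45% and 8.46%, and the core of the hypoxia response element (ACGTG or GCGTG) in 30.6% and 43.8%. A match of letters is a description and not a bound site.

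With LPS, 4 of 22 members measured were at least 2-fold higher and 0 lower. A gene counts as measured if 1 of the table's libraries has it at 1 FPKM or more. Ratios are of FPKM plus a pseudocount of 1, which shrinks the ratio of low genes, and 2-fold stands for a log2 ratio of at least 1 in size. Over all 11010 genes measured, 8.6% were at least 2-fold higher and 5.84% lower, 14.4% in all. The members' median log2 ratio was 0.16, beside 0.03 over all genes, with 13 members above 0 and 9 below. A lower level in these libraries of whole cultures may mean fewer cells with the RNA or less RNA per cell, which cannot be told apart.

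Trim30a, a mouse SPRY ligase first described as an inhibitor of Toll-like receptor signalling through TAB2 and TAB3 (chromosome 7, 104409025 to 104465193), had 0.156 FPKM in HD and 9.91 in HD+LPS. These levels correspond to about 11 and 557 fragments. Without the pseudocount the ratio was 63.4-fold, with an approximate 95% counting interval from 5.11 to 6.97 on the log2 scale, and with it the log2 ratio was 3.24. Only 0.609% of genes measured had a higher ratio. Because Trim30a was under 1 FPKM without LPS, it was measured only through the LPS library and had to differ. In the authors' deposited table it has p = 0.02335 and q = 0.624624, and is not called.

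Trim25, the SPRY ligase that activates the RNA sensor RIG-I in antiviral signalling (chromosome 11, 88999403 to 89020294), had values on 2 rows. The row kept by the rule lies on an alternate scaffold, where Trim25 was 12.3 FPKM without LPS and 61.4 with it, a log2 ratio of 2.23. On the chromosome 11 row the levels were 10.0 and 36.1 FPKM, a log2 ratio of 1.75. Both rows were thus past 2-fold, while their sizes differed. The authors' deposited table has q = 0.218027 for the scaffold row of Trim25, the lowest of any member.

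Trim56, a RING and B-box protein that restricts RNA viruses and acts on the STING and TLR3 pathways (chromosome 5, 137111286 to 137116462), had 5.11 FPKM in HD and 11.4 in HD+LPS, a log2 ratio of 1.02. Trim12c, a mouse relative of the retroviral restriction factor TRIM5 (chromosome 7, 104338754 to 104353358), was 0.876 and 2.77 FPKM, a log2 ratio of 1.01. With the pseudocount of 1 both lay at the threshold. Rescaling to equal totals with the 20 highest genes set aside gave log2 ratios of 0.99 for Trim56 and 0.98 for Trim12c. Without the pseudocount Trim56 was 2.23-fold and Trim12c 3.16-fold higher with LPS. Trim12c too was measured only through the LPS library, and 32.7% of the 50-base windows of its longest transcript occur in transcripts of other genes, chiefly Trim5 and Trim12a. Its reads may therefore be partly those of its neighbours. In the authors' deposited table Trim56 and Trim12c have q = 0.999327.

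**Figure D2:**
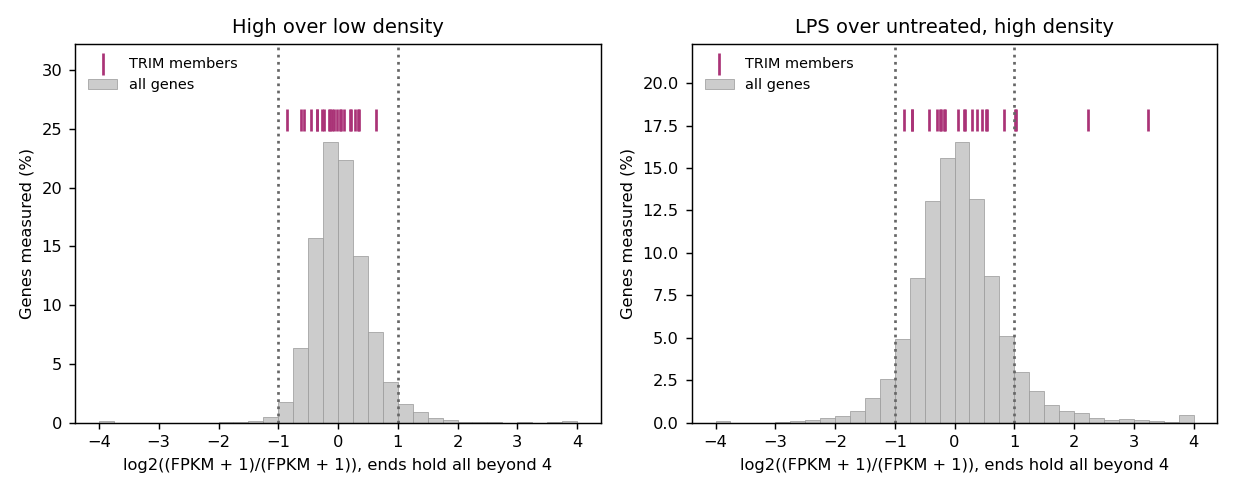
Share of genes measured (%) by log2((FPKM + 1)/(FPKM + 1)) in bins of 0.25 (grey bars) with each TRIM member measured as a vertical mark above. Dotted lines mark 2-fold. In the density panel all 22 marks lie within 2-fold, and in the LPS panel 4 lie past it, 2 of them near the line.

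Several other members differed less. Trim35, a SPRY ligase, was 24.1 FPKM without LPS and 43.3 with it, a log2 ratio of 0.82. Trim39 (1.64 and 2.84 FPKM), Trim32 (an NHL ligase mutated in a human muscular dystrophy, 9.27 and 13.8 FPKM), Trim23 (which carries an ARF domain, 4.38 and 6.43 FPKM) and Trim33 (a PHD-bromodomain ligase acting on SMAD4, 7.71 and 10.4 FPKM) had log2 ratios from 0.38 to 0.54. All of these were higher with LPS but within 2-fold, and their counting intervals lay above 0. Trim46, at 3.79 and 4.88 FPKM, overlaps Krtcap2, and reads of the pair may not be separable. Of the 23 expressed members 10 overlap another RefSeq gene, among them Trim28 (Gm31649), Trim25 (Gm11496), Trim30a (Gm25405), Trim12c (Gm36430) and Trim32 (Astn2), and whether the counting used strand is not stated.

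Lower with LPS but within 2-fold were Trim65, Trim11, Trim28 and Trim68. Trim65, a SPRY ligase that ubiquitinates the RNA sensor MDA5 (chromosome 11, 116124708 to 116131413), had 1.34 FPKM in HD and 0.298 in HD+LPS, about 99 and 18 fragments. Without the pseudocount its log2 ratio was -2.17 in the authors' deposited table, where q is 0.999327, and with it -0.85. Trim11, at 9.63 and 5.45 FPKM, had a log2 ratio of -0.72, and Trim28 one of -0.71. Trim68 was 2.01 and 1.23 FPKM. The remaining measured members, Trim8, Trim14, Trim24, Trim27, Trim3, Trim41, Trim44 and Trim59, had log2 ratios between -0.29 and 0.17. Among them Trim3 was 9.19 FPKM in HD and 8.02 in HD+LPS, Trim24 6.59 and 6.87, Trim41 3.40 and 2.93, and Trim59 16.8 and 14.1. Trim14, which lacks a RING and acts as a mitochondrial adaptor of MAVS signalling, was 22.3 and 25.3 FPKM.

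TRIM genes known from other work as interferon-inducible made a list of 16, of which 15 had a row of their own. Of these, 5 were measured with LPS and 4 of the 5 were the genes past 2-fold, with Trim14 the remaining one. Over all genes 8.6% were at least 2-fold higher. After either rescaling, 2 of the 5 passed, Trim25 and Trim30a. Outside that list 0 of 17 members measured passed 2-fold in either direction with the pseudocount of 1, and their median log2 ratio was -0.16. At a pseudocount of 0.1 Trim65, which is outside the list, was past 2-fold, with a log2 ratio of -1.86. Since Trim30a and Trim12c passed only through the LPS library, the 4 of 5 is partly fixed by the minimum. The list was also chosen with earlier results of these data known, so the 4 of 5 is not independent support. Among the list's members under 1 FPKM, Trim26 was 0.0702 FPKM without LPS and 0.291 with it, and Trim38 was listed at 0 in both. Trim21, the cytosolic antibody receptor, was 0.515 and 0.845 FPKM in the LPS table.

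In the main run of TRIM genes on chromosome 7, 9 members lie within 289 kb (104218795 to 104507853): Trim6, Trim34a, Trim5, Trim12a, Trim34b, Trim12c, Trim30c, Trim30a and Trim30d, in that order. Their summed level was 1.38 FPKM without LPS and 14.0 with it, most of it Trim30a. Trim34a was listed at 0 without LPS and was 0.414 FPKM with it, about 16 fragments. Trim12a was 0.120 and 0.362 FPKM, Trim5 0.155 and 0.312, and Trim34b 0.0706 and 0.216, with 17 fragments or fewer in each library. Of the 9, 7 were listed higher with LPS and 2, Trim6 and Trim30d, were at 0 in both libraries. Trim30c, at 0 and 0.0489 FPKM, rested on about 1 fragment. The counting intervals of Trim30c, Trim5, Trim12a and Trim34b held 0. Among all genes measured, 5731 of 11010 had a log2 ratio above 0, but most of the 9 were not measured. Paralogs here share sequence: 41.3% of the 50-base windows of Trim34a and 59.0% of those of Trim34b are common to both, while 6.53% of those of Trim30a occur in Trim30d. The sources do not say how reads matching several genes were placed, so the low members are uncertain.

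**Figure D3:**
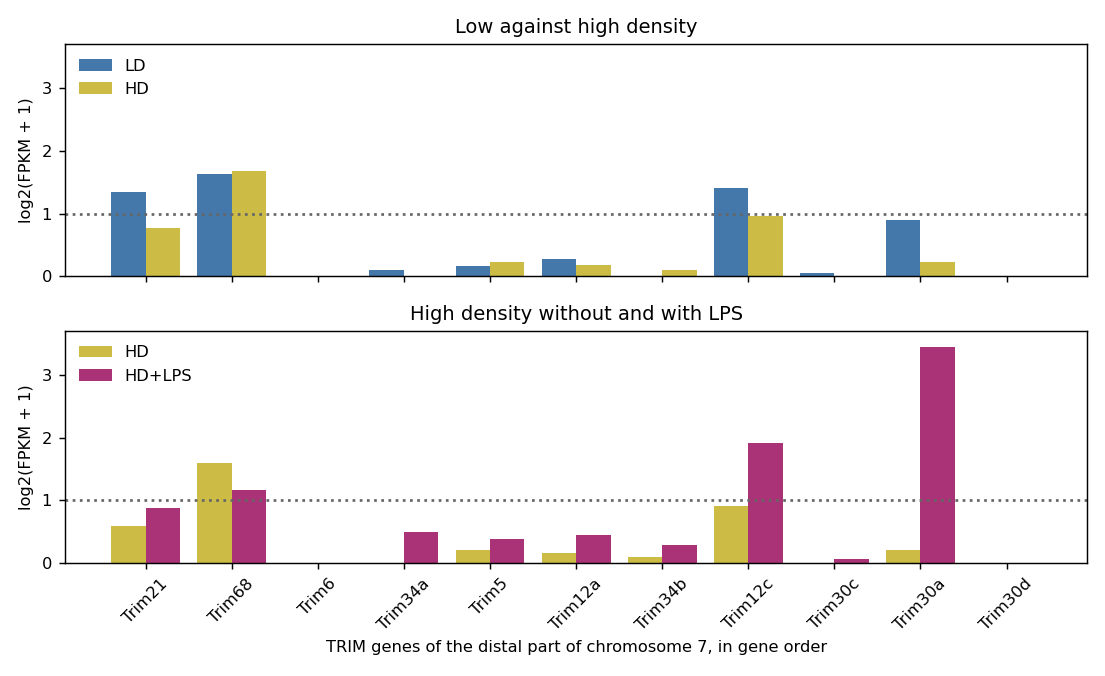
Level as log2(FPKM + 1) of 11 TRIM genes of the distal part of chromosome 7 in gene order, 1 library a bar, with low and high density above and high density without and with LPS below. The dotted line is 1 FPKM. Trim30a and Trim12c have the tallest LPS bars, at 9.91 and 2.77 FPKM, and Trim6 and Trim30d have no bar.

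At high density against low density, 0 of 22 members measured were at least 2-fold higher or lower with the pseudocount of 1. That count depends on the pseudocount: at 0.1, Trim21 and Trim65 were past 2-fold, with log2 ratios of -1.01 and -1.11, and without one they were 2.15-fold and 2.22-fold lower. Over all 10911 genes measured, 3.54% were at least 2-fold higher and 0.907% lower, 4.45% in all. The members' median log2 ratio was -0.09, beside 0.01 over all genes, with 9 above 0 and 13 below, and their range was -0.85 to 0.64. Rescaling without the 20 highest genes moved the median of all genes to -0.20 and that of the members to -0.32, and left 4 members above 0 and 18 below. By density the authors' deposited table called 0 of the 25 member rows it tested, beside 0.253% of all rows tested, and with LPS the authors' deposited table called 0 of 24, beside 0.341%. An unadjusted p under 0.05 was given to 2 members in each of the tables. The share of all rows tested with such a p was not counted, so these counts have no background.

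Trim65 had the lowest density ratio, at 4.20 FPKM in LD and 1.89 in HD, about 284 and 130 fragments. Its log2 ratio was -0.85 with the pseudocount and -1.15 in the authors' deposited table, where p is 0.0347 and q is 0.999352. Trim65 was thus lower at high density than at low density and lower again with LPS, but its locus begins at different positions in the tables and its high density level was 1.89 FPKM in one and 1.34 in the other. That was the widest gap of any member for the same library.

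Trim39, a SPRY ligase with a part in cell cycle control, was 3.31 FPKM in LD and 1.80 in HD, a log2 ratio of -0.62. Trim21 was 1.53 and 0.712 FPKM, a log2 ratio of -0.56 with the pseudocount of 1 and -1.10 in the authors' deposited table, and Trim12c 1.64 and 0.939 FPKM, one of -0.44. Trim30a was under 1 FPKM in both libraries, at 0.855 in LD and 0.170 in HD, about 54 and 11 fragments. In the authors' deposited table Trim30a has p = 0.04205 and q = 0.999352 for density. Trim39, Trim12c and Trim30a were thus lower in HD than in LD and higher in HD+LPS than in HD. So were Trim23, Trim25, Trim32, Trim33, Trim35, Trim44 and Trim56, by smaller density ratios. The share of all genes with this order was not counted, so it does not set these members apart. Trim21 was not measured with LPS, where its counting interval, from -0.05 to 1.51 on the log2 scale, held 0, and its HD level differed between the tables by a log2 of -0.47. The comparisons share the high density library, so a low value there alone moves both ratios.

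Trim41, a SPRY ligase, had the highest density ratio, at 2.07 FPKM in LD and 3.77 in HD, a log2 ratio of 0.64. Trim3 (an NHL ligase, 7.80 and 10.2 FPKM), Trim46 (3.12 and 4.21 FPKM) and Trim24 (a PHD-bromodomain co-regulator of nuclear receptors, 5.81 and 7.27 FPKM) followed, at log2 ratios from 0.28 to 0.35. Trim28 and Trim27 had log2 ratios of 0.22 and 0.20 with the pseudocount of 1, and -0.02 and -0.03 after the rescaling, so no direction is given for them. Trim14, at 22.1 and 23.7 FPKM, Trim68, at 2.11 and 2.21, and Trim8 changed sign under the rescaling as well. Trim25 was 15.8 and 13.3 FPKM on the scaffold row and 11.5 and 11.0 on chromosome 11. Trim56, at 7.42 and 5.58 FPKM, Trim32, at 13.4 and 10.2, and Trim23, at 5.89 and 4.72, had log2 ratios from -0.36 to -0.27. Trim33 (9.28 and 8.40 FPKM), Trim35 (29.6 and 26.5 FPKM), Trim44 (37.4 and 34.7 FPKM), Trim59 (19.1 and 18.1 FPKM) and Trim11 (10.8 and 10.7 FPKM) differed by 0.15 or less on the log2 scale.

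Approximate counting intervals were set beside the ratios at the deposited scaling. Fragments were approximated from the length of the longest coding transcript, and 95% intervals of the ratio without pseudocount lay above 0 for 6 and below 0 for 11 of the 22 members by density, and held 0 for 5. The 6 include Trim27 and Trim28, whose sign turned under the rescaling, and the intervals do not cover the choice of scaling. With LPS they lay above 0 for 12, below 0 for 7 and held 0 for 3, Trim24, Trim3 and Trim41. The intervals do not include differences between cultures or preparations, for which these data have no measure. They were made for members only, so no share over all genes stands beside these counts. The counts therefore do not set TRIM genes apart from other genes.

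**Figure D4:**
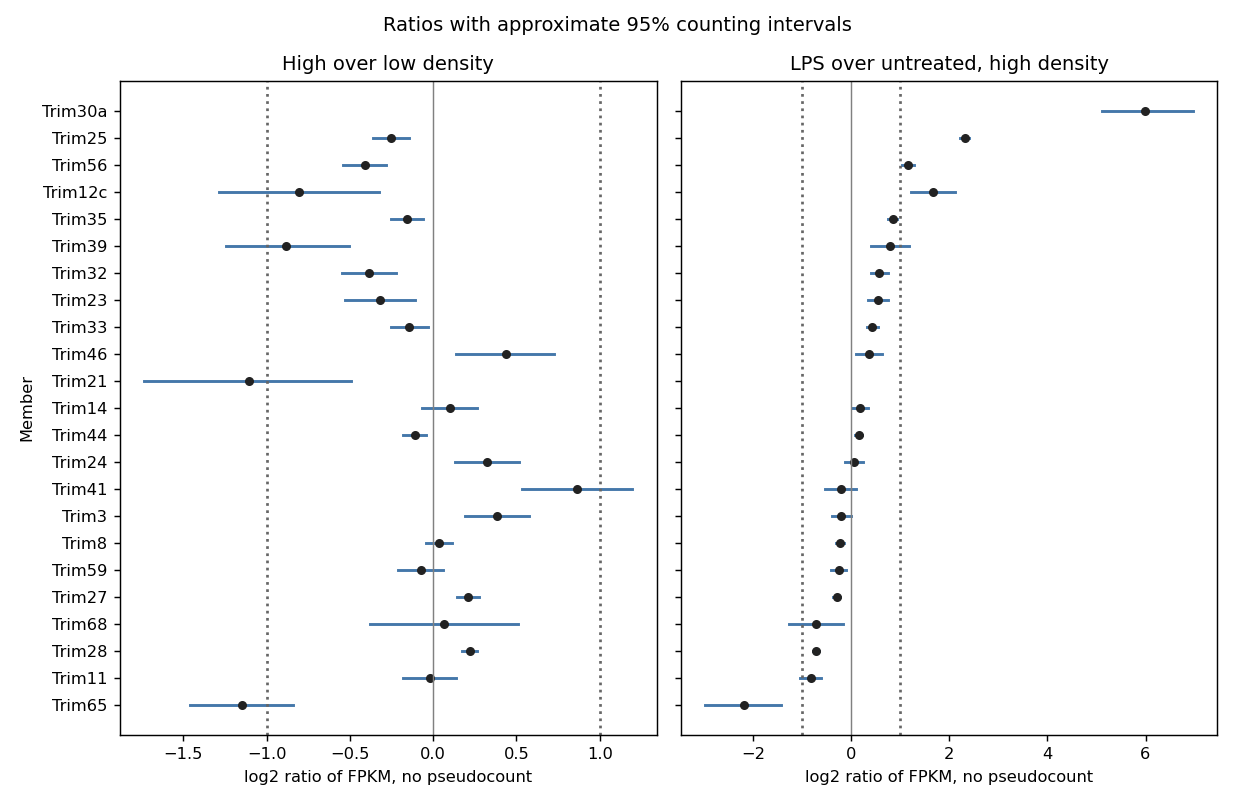
Log2 ratio of FPKM without pseudocount (points) with approximate 95% counting intervals (lines), 1 library a group. Members are ordered by their LPS ratio with the pseudocount of 1. Left, high over low density, where Trim30a was not measured and Trim21 and Trim65 lie below a log2 ratio of -1. Right, LPS over untreated, where Trim21 was not measured. There Trim30a, Trim25, Trim56 and Trim12c lie above a log2 ratio of 1 and Trim65 below -1.

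The 12 members listed at 0 in every library were Trim6, Trim9, Trim10, Trim30d, Trim31, Trim40, Trim42, Trim50, Trim52, Trim54, Trim58 and Trim80. A listed 0 does not show that a gene is silent in these tables, since Gabarap, an autophagy gene used by nearly all cells, was also listed at 0 in every library. The 28 members above 0 but under 1 FPKM peaked between 0.0249 and 0.638 FPKM. They were Trim2, Trim5, Trim7, Trim12a, Trim15, Trim16, Trim26, Trim29, Trim30c, Trim34a, Trim34b, Trim36, Trim37, Trim38, Trim43a, Trim43b, Trim43c, Trim45, Trim47, Trim55, Trim62, Trim63, Trim66, Trim67, Trim69, Trim71, Trim72 and Trim75. None of them exceeded about 50 fragments in any library by the approximation above. Elsewhere Trim54, Trim55, Trim63 and Trim72 are known as muscle proteins. Trim16 was 0.589 and 0.546 FPKM by density, and 0.496 in HD and 0.0717 in HD+LPS, about 35 and 4 fragments.

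Levels were lower among genes annotated more than once. Of the 63 members, 13 have a row on an alternate scaffold besides the chromosome, and 3 of these 13 reached 1 FPKM, beside 20 of 50 without one. Over protein-coding genes the shares at 1 FPKM or more were 23.3% of 1072 with a scaffold row and 48.1% of 19446 without. On chromosome 17, Trim39, Trim26, Trim15, Trim10, Trim40 and Trim31 each have 3 scaffold rows, and all 9 other protein-coding genes between them were listed at 0. Trim39 was the one member of this region above 1 FPKM. Trim37, a MATH-domain ligase of centrosomes and peroxisomes, has a scaffold row and was 0.122 to 0.171 FPKM. The part of scaffold copies in these low levels was not tested. Of Trim45 the scaffold row, at 0.558 FPKM at low density, exceeded the chromosome 3 row, at 0.0155. Of the 12 listed at 0, 8 have no scaffold row.

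Some TRIM genes fell outside the rule because their rows are joined with a neighbour or because they bear other symbols. The row joining Trim17 with the histone gene H2aw was 9.16 and 12.6 FPKM by density, and 11.4 without LPS and 1.03 with it, which cannot be divided between the genes. The row of Trim13 and Kcnrg was 1.95 and 1.32 FPKM by density, and 1.21 and 2.42 in the LPS table. Pml, the organiser of nuclear bodies also called TRIM19, was 5.91 FPKM without LPS and 7.01 with it, and Mid1 was 1.32 and 1.79.

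Partners of TRIM ligases were read beside them. Of 20 measured genes of nucleic acid and Toll-like receptor signalling, 6 were at least 2-fold higher with LPS and 1 lower, beside 8.6% and 5.84% of all genes. Irf7 was 1.94 FPKM without LPS and 185 with it, Ddx58 (RIG-I, the target of Trim25) 2.29 and 25, Ifih1 (MDA5, the target of Trim65) 0.493 and 8.19, and Ikbke 11.9 and 47.8. Ifih1 was measured only through the LPS library. Irf3 was the gene at least 2-fold lower, at 21.2 and 9.82 FPKM. At high density against low density 0 of 19 in this list passed 2-fold, beside 4.45% of all genes. Of the 19, 4 were above 0 and 15 below, with a median log2 ratio of -0.24, beside 0.01 over all genes.

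In the list of ubiquitin pathway genes, Ube2l6, the conjugating enzyme for ISG15, was 15.9 FPKM in HD and 38.7 in HD+LPS, a log2 ratio of 1.23. Ube2n, which builds the chains used by many TRIM ligases, was 43.8 and 40.7 FPKM in the LPS table. Among 13 chromatin partners of Trim28, Trim24 and Trim33, 1 was at least 2-fold higher with LPS, Mdm2, at 35.9 and 136 FPKM. With LPS 0 were lower, beside the same shares of all genes. By density 0 of 13 were past 2-fold, beside 4.45% of all genes. Setdb1, the methyltransferase that works with Trim28, was 19.2 and 19.4 FPKM in the LPS table. Among 10 autophagy partners the receptor gene Sqstm1 was 146 and 1335 FPKM in the LPS table. It was the 1 gene of the 10 past 2-fold with LPS, beside 14.4% of all genes. By density 2 of 10 were higher, beside 3.54% of all genes, Calcoco1 at 5.26 and 13.2 FPKM and Map1lc3a at 8.31 and 19.8.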

How the data were processed

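RNA was sequenced from 3 libraries of RAW264.7, 1 per group, per the labels. Tools listed in the submitters' processing notes are FastQC, fastp, TopHat2 and Cuffdiff, with GRCm38 and mm10 as genome build and no tool version. For annotation, strand, scaling and read placement, nothing is given in the sources used here. From these steps the authors deposited 2 Cuffdiff tables, of 49850 and 49971 rows, whose values are FPKM per the file headers. The same deposited tables hold a log2 ratio, a score (the test statistic), a p-value and a q-value by the authors, from a test without replicates.

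Rows with no symbol (1154 and 1233) were left out. Ratios are log2 of FPKM plus a pseudocount of 1, and a gene was measured where 1 library or both reached 1 FPKM and its status was not failed (0 and 12 rows failed). The 1-fragment step was the median of FPKM times kilobases between 0.03 and 0.09 in genes with 1 GENCODE M21 transcript of 1000 bases or more. Counting intervals are exact conditional binomial intervals at 95%, cover counting error only, and rest on approximate fragments. Loci and RefSeq gene positions are on GRCm38, all 63 members matched RefSeq by symbol, and promoters are RefSeq's. Every member at 1 FPKM or more was to be named with its levels, with full values for those past 2-fold and the 5 highest of each library, the others by name, and up to 4 partners per list past 2-fold by size. Members and lists were chosen with earlier results of these data known. Protein sequences were not used here, and windows of 50 bases of GENCODE transcripts were compared instead. Alternatives covered pseudocount, minimum, scaling, row choice and status. Steps were tested on simulated data. Python 3.11.15, pandas 2.3.3 and scipy 1.17.1 were used. The ubiquitin pathway list is given without its counts, since 1 of its results is not reported here.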

Additional observations from a re-analysis of the deposited data

How the results depend on the processing

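No paired analysis was possible because each group has 1 library, so no replicate could be left out either. The count of members past 2-fold with LPS was 4 with the pseudocount of 1, where Trim56 and Trim12c lie at the threshold. It was 2, Trim25 and Trim30a, at a pseudocount of 5, after rescaling without the 20 highest genes and with the median of ratios set to 0. At a pseudocount of 0.1 the count was 5, with Trim65 lower besides the same 4 genes higher. By density it was 0 with the pseudocount of 1 and 2, Trim21 and Trim65, both lower, at a pseudocount of 0.1. The median of the members by density was 0.019 with no minimum and -0.32 after the rescaling, and with LPS 0.0032 with no minimum, where 50 and 48 members enter, most near 0. The other alternatives, including taking the chromosome row in place of a scaffold row (chosen after seeing the data), left these counts within 1.5 times and the medians within 0.1. With a minimum of 0.5 or 5 FPKM, 25 or 16 members counted as expressed in place of 23. Under the scaling, pseudocount and row alternatives 0 members changed sign with LPS, and 5 did by density, Trim8, Trim14, Trim27, Trim28 and Trim68, under the rescaling without the 20 highest genes. Depth limits members under 1 FPKM, which had about 50 fragments or fewer.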
